A study of Arabidopsis thaliana with 6 samples.

Results

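The genes described here are the leaf transcripts of the *Arabidopsis thaliana* mutant *cat2-2* that were reduced at least 4-fold when plants were moved to high light and ordinary air. They were chosen by their counts in these libraries, among nuclear genes only. A gene was taken when its mean CPM (counts scaled to a library of 1000000 counts) over the high CO2 libraries was at least 5, its mean over the high light libraries was at most 25% of that, and every high light library lay below every high CO2 library. Of 33602 genes in the deposited table, 12879 nuclear genes reached 5 CPM in high CO2. The rule was met by 184 of these expressed genes, or 1.43%. The rule used the one comparison these libraries allow, so the falls of the members are given as a description, with no test.

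All 6 libraries came from middle-aged leaves of 3-week-old *cat2-2* plants in the Columbia-0 background. The high light group (3 libraries) was sampled after 3 h at 400 ppm CO2, 1200 µmol m-2 s-1 of light, 55% relative humidity and 21 °C in another growth chamber. The high CO2 group (3 libraries) was sampled at 0 h at 3000 ppm CO2, 120 µmol m-2 s-1 of light, 75% relative humidity and 21 °C, the conditions in which all plants had been grown under 16 h of light and 8 h of dark a day. Each library pooled leaves of 15 plants, the whole set-up was repeated for each of the 3 biological repeats, and both groups carried the same mutation. No wild type was among the samples analysed here, and light, CO2, humidity, chamber and sampling time changed together, so they cannot be told apart.

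CAT2 is the main catalase of leaves, and it breaks down the hydrogen peroxide that peroxisomes make during photorespiration. Carbon dioxide at high concentration keeps photorespiration low, and strong light in ordinary air drives it. Leaves that still expand loosen their walls with expansins and xyloglucan-modifying enzymes under the control of auxin, gibberellin and brassinosteroid, while they lay down cuticle and store defence compounds such as glucosinolates and flavonols. Many such genes also follow the day through light receptors and the circadian clock.

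Library totals were 21967471, 21672913 and 21685292 counts in high light and 22130229, 24149149 and 18047295 counts in high CO2. Reads of CAT2 itself were present throughout, at 724, 1010 and 928 counts in high light and 1760, 2427 and 1752 counts in high CO2, and the sources used here do not say which part of it the mutation alters. The second principal component (4.66% of the variance) set replicate 3 of each group off from the other libraries. Across all genes tested, the quasi-likelihood test of edgeR, adjusted after Benjamini and Hochberg, called 5616 genes lower (30.4%) and 5631 higher (30.4%) in high light at an adjusted p under 0.05. With upper-quartile scaling the median log2 fold change over these genes moved to -0.33, against -0.06 with the TMM scaling used for the tests, and the split moved to 7883 lower and 4386 higher (35.7% of calls were rises, against 50.1%).

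The 184 members were spread over the whole range of abundance. They made up 1.61% of expressed genes between 5 and 10 CPM in high CO2, 1.21% between 10 and 30 CPM, 1.42% between 30 and 100 CPM and 1.87% from 100 CPM upwards. Their reduction was mostly near the limit of the rule: the median member kept 21.0% of its high CO2 mean, 79 members were at least 5-fold lower, 16 at least 8-fold and 8 at least 10-fold. The median log2 ratio was -2.25 over the members and -0.08 over all expressed genes. EdgeR called 184 of 184 members lower, beside 30.4% of all genes tested, and 35.4% of expressed genes had every high light library below every high CO2 library; since the rule used this contrast, nothing is read from these counts. By the mirrored rule, 1460 of 13349 genes with at least 5 CPM in high light were at least 4-fold higher there. No member was at 0 in any library.

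**Figure D1:**
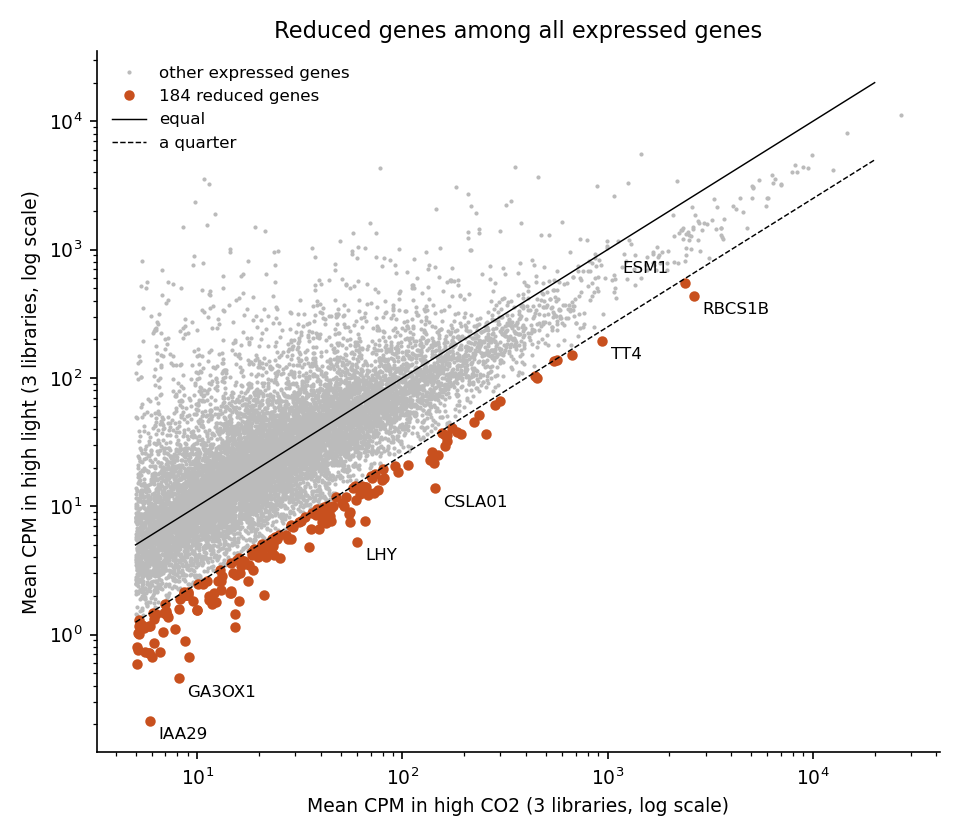
Mean CPM in high CO2 (x axis, log scale) against mean CPM in high light (y axis, log scale) for every gene with at least 5 CPM in high CO2 and a count in high light, 3 libraries per mean. The 184 reduced genes lie on or under the dashed line at 25% and run from about 5 CPM to RBCS1B, whose high CO2 mean was 2646 CPM; IAA29 lies farthest below the line.

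The members together took 0.356%, 0.342% and 0.301% of all counts in the high light libraries (0.333% ± 0.0286, SD, n = 3), against 1.71%, 1.63% and 1.54% in the high CO2 libraries (1.63% ± 0.0818, SD, n = 3). Counting error on these shares is small beside that spread. The Wilson binomial 95% interval of the first high light library ran from 0.353% to 0.358%. That of the first high CO2 library ran from 1.70% to 1.71%. These intervals cover counting error only. In bulk leaf RNA, fewer cells of a type and less RNA per cell cannot be told apart, here and in all values that follow.

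The lowest ratio belonged to IAA29 (AT4G32280), an Aux/IAA repressor of auxin response, which kept 3.64% of its high CO2 mean. It had 0.273, 0.0923 and 0.277 CPM in high light, against 6.82, 2.77 and 8.03 CPM in high CO2, a mean of 0.214 ± 0.105 CPM in high light and 5.88 ± 2.75 CPM in high CO2 (SD, n = 3 each). GA3OX1 (AT1G15550), the oxidase that makes active gibberellin, kept 5.65% and had 0.455, 0.877 and 0.0461 CPM in high light, against 8.36, 9.61 and 6.43 CPM in high CO2. All 3 high light values of both genes lay below 1 CPM, and GA3OX1 had 1 count in high light replicate 3. TRM24 (AT5G51850), named for a motif of proteins that recruit TONNEAU1 to microtubules, kept 7.39%, and AT5G62210, annotated as an embryo-specific protein, kept 7.53%. The libraries of AT5G62210 were close within each group, at 1.18, 0.831 and 1.43 CPM in high light, against 15.4, 16.7 and 13.6 CPM in high CO2. The clock gene LHY (AT1G01060) kept 8.84%, the leucine-rich repeat gene AT3G17640 9.44%, the lipid transfer gene LTP6 (AT3G08770) 9.57%, the mannan synthase family gene CSLA01 (AT4G16590) 9.68%, SAUR20 (AT5G18020) 10.2% and the gibberellin oxidase GA20OX1 (AT4G25420) 11.2%. CSLA01 was the one of these 10 with a high CO2 mean above 100 CPM, with 20.2, 15.1 and 6.41 CPM in high light, against 127, 128 and 176 CPM in high CO2.

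**Figure D2:**
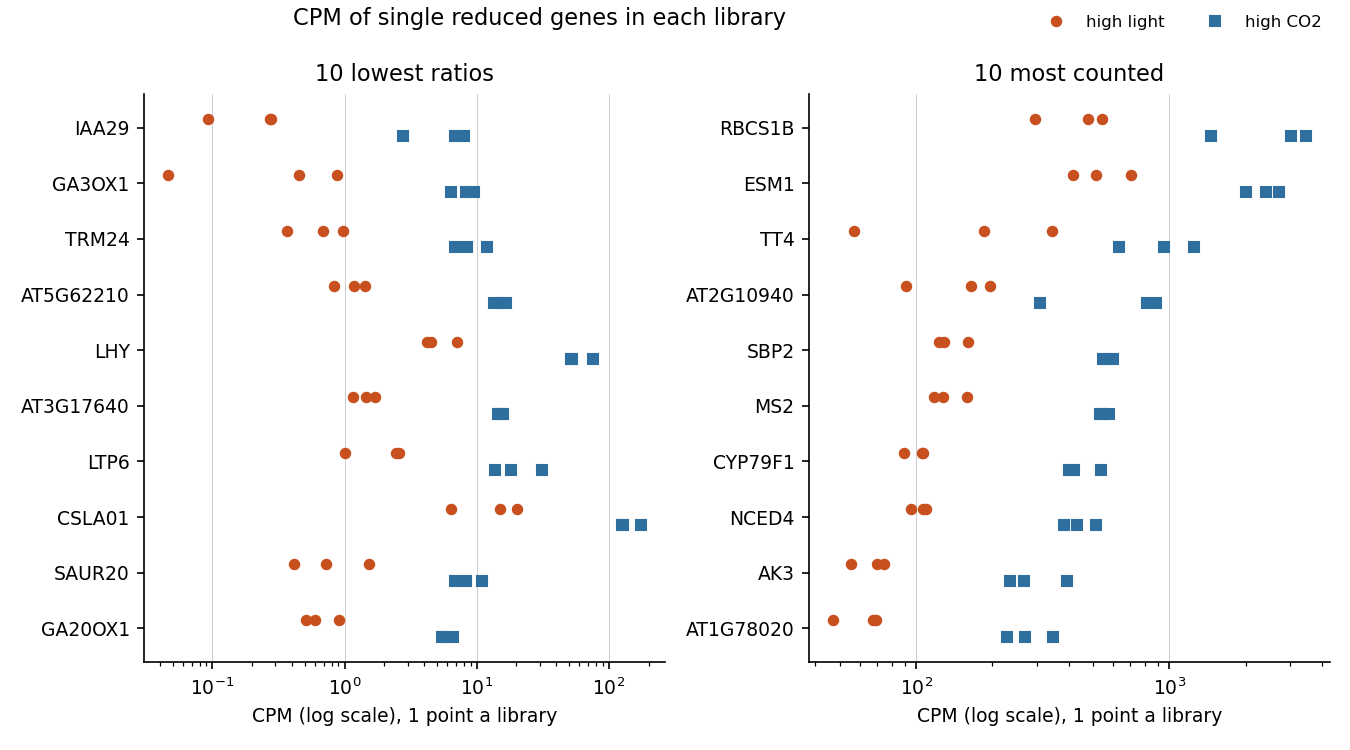
CPM of single genes in each library (x axis, log scale, 1 point a library), high light as circles above high CO2 as squares; left, the 10 members with the lowest ratio, right, the 10 with the highest mean CPM in high CO2. The groups do not overlap for any of the 20 genes, as the rule requires, and the gap is narrowest on the right for AT2G10940 and TT4, where replicates of a group lie far apart.

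Exon number was not used by the rule, and genes of few exons were common among the members. In the RefSeq TAIR10.1 annotation, 41 of 183 protein-coding members (22.4%) had a single exon, beside 9.5% of 12780 protein-coding genes with at least 5 CPM in high CO2. Genes with 10 or more exons made up 5.46% of the members and 25% of the expressed genes, and the median was 3 exons among members and 6 among expressed genes. The median transcript was 1770.0 bases long for members and 1765.5 bases for expressed genes. These shares are descriptions, with no test.

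The promoters were read from 250 bases before to 50 bases after the annotated start of each gene, and 12 short motifs were searched on both strands in 183 member windows and 12779 windows of expressed genes. The letters TGTCTC, the auxin response element, were present in 38 member windows (20.8%), beside 13.3% of all windows. Of the members placed under auxin below, SAUR20 and GH3.3 held these letters and the others did not. TGGGCC, the site II element known from genes of ribosomes and growing cells, was in 11 member windows (6.01%), beside 21.3% of all windows. TATAAA, the TATA box, was in 55.7% of member windows and 49.9% of all windows, TTGACC (a W-box) in 8.74% and 14.1%, GAANNTTC (a heat shock element) in 7.10% and 11.3%, and CACGTG (a G-box) in 10.9% and 9.37%. The remaining ones were GATAAG in 14.2% and 15.4%, AAAAATCT in 6.56% and 8.53%, GGNCCCAC, which can overlap TGGGCC, in 3.28% and 1.87%, AAAATATCT (the evening element) in 1.09% and 3.02%, CGTGCG in 2.73% and 2.14%, and CAATNATTG in 0.546% and 1.17%. A match is a run of letters and not a shown binding site.

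The 250 bases before the annotated start are printed for 3 of the 10 members with the lowest ratios, GA3OX1, SAUR20 and LHY, as examples of windows that hold the auxin element or the G-box. They are from RefSeq TAIR10.1, 5′ to 3′ on the strand of the gene, and capitals mark TGTCTC or its reverse complement GAGACA, and CACGTG. GA3OX1 lies on chromosome 1, minus strand:
GA3OX1: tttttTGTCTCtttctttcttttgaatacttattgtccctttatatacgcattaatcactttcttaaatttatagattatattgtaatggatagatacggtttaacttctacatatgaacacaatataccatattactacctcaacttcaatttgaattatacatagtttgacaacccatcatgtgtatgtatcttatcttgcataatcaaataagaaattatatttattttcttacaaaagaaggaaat
SAUR20 lies on chromosome 5, minus strand:
SAUR20: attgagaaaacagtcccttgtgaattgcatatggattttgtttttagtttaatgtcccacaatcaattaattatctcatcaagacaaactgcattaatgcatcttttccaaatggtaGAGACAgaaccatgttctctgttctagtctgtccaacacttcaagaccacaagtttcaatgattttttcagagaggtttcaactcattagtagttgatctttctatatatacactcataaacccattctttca
LHY lies on chromosome 1, minus strand:
LHY: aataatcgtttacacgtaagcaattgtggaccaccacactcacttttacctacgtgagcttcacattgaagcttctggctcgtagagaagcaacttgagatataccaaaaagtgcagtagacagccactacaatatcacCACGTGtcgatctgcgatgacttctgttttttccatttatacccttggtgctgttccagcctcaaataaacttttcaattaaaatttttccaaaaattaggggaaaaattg
The auxin element began 245 bases before the start of GA3OX1 and 133 before that of SAUR20. The G-box began 111 bases before the start of LHY.

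**Figure D3:**
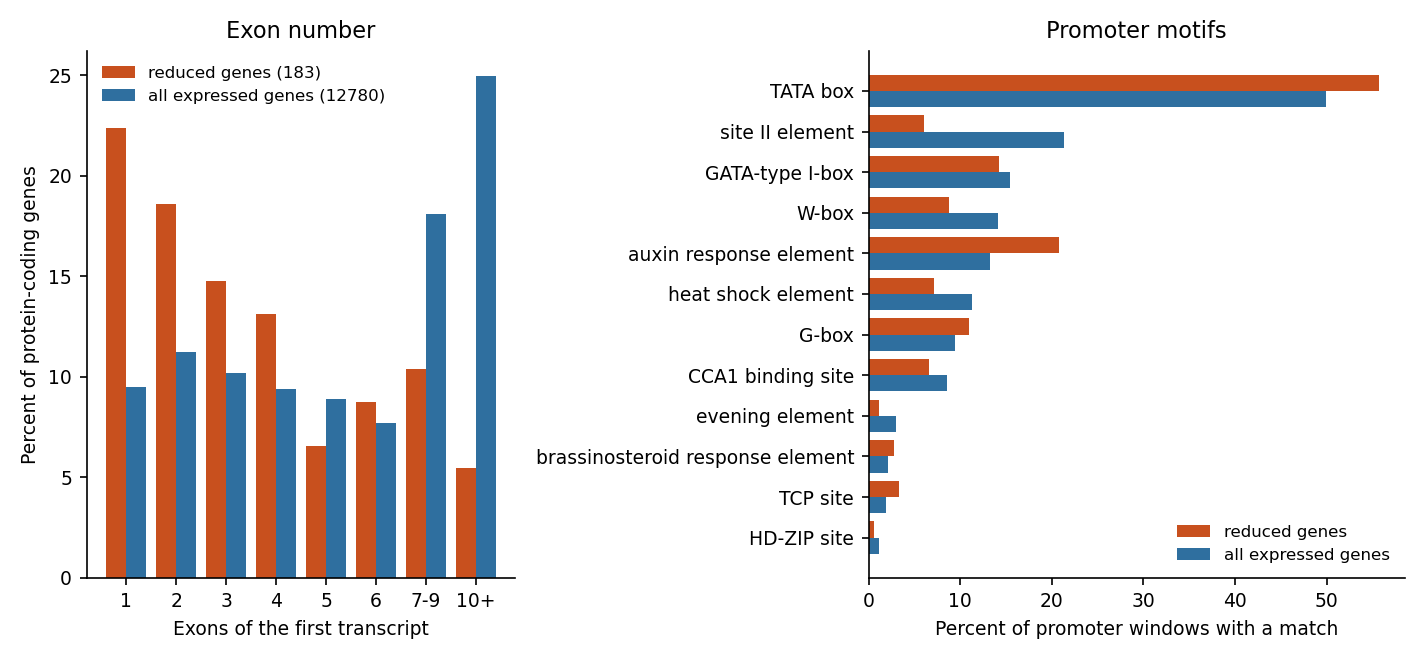
Left, percent of protein-coding genes (y axis) by exon number of the first annotated transcript (x axis); right, percent of promoter windows (x axis) that hold each of 12 motifs (y axis); reduced genes beside all expressed genes. Single-exon genes stood at 22.4% and 9.5%, the auxin response element at 20.8% and 13.3% and the site II element at 6.01% and 21.3%.

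To describe the members by what they do, 145 of the 184 were placed by hand in 12 roles after their values had been seen, and 39 stayed without one. Auxin was the subject of 20 members, which kept 3.64% to 24.9% of their high CO2 means. Their summed CPM was 97.8, 107 and 81.1 CPM in high light, against 515, 426 and 480.02 CPM in high CO2. Of these, 11 were SAUR genes, small auxin-up RNAs whose products act in cell expansion. Apart from SAUR20, they were AT5G18030, SAUR24, SAUR29, AT1G29450, SAUR63, AT4G34760, AT1G29460, AT4G38860, AT4G38840 and AT1G20470. AT5G18030, the neighbour of SAUR20, had 0.683, 1.66 and 0.968 CPM in high light, against 11, 7.0 and 5.37 CPM in high CO2. SAUR24 (AT5G18080) had 1.0, 1.15 and 1.01 CPM in high light, against 6.82, 5.51 and 8.03 CPM in high CO2. SAUR29 (AT3G03820) had 1.27, 1.94 and 0.876 CPM in high light, against 9.67, 5.34 and 6.7 CPM in high CO2. In 14 of the 20 auxin members the highest high light value was that of replicate 2, and in 13 of them the lowest high CO2 value was that of replicate 2. Over all expressed genes these libraries were the highest and the lowest of their groups for 45.3% and 36.2%. AT4G38860 was the SAUR member with the highest high CO2 mean, at 10.01, 13.9 and 5.99 CPM in high light, against 52.7, 46.1 and 39.3 CPM in high CO2. In the SAUR family as a whole, edgeR called 27 of 43 tested genes lower and 8 higher, beside 30.4% lower and 30.4% higher of all genes tested, and the median log2 fold change was -1.65, beside -0.06 over all genes tested. The counts of this and the other families include the members, which were chosen for falling in the same contrast, so they are no support for the direction. Of the 32 SAUR genes that are no members 16 were lower and 8 higher (median -0.98). The family held opposite changes: SAUR9 (AT4G36110) rose, with 15.9, 20.6 and 16.6 CPM in high light, against 2.44, 2.24 and 2.33 CPM in high CO2 (log2 fold change 2.86 ± 0.15, edgeR adjusted p = 1.4e-06). AT4G12410 rose on few reads in high CO2, with 1.96, 2.35 and 1.29 CPM in high light, against 0.136, 0.166 and 0 CPM in high CO2 (edgeR adjusted p = 3.3e-04). SAUR63 matched SAUR68, and SAUR24 matched SAUR19, at over 95% identity, so reads that fit both copies leave these values uncertain.

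Genes that make, move and sense auxin were also among these 20. TAR2 (AT4G24670), a tryptophan aminotransferase of auxin synthesis, had 2.37, 2.17 and 1.75 CPM in high light, against 14.5, 14.4 and 14.8 CPM in high CO2. Its high CO2 libraries lay within 1 CPM of each other. The influx carriers LAX2 (AT2G21050) and AUX1 (AT2G38120) kept 14.6% and 21%, and the efflux carrier PIN3 (AT1G70940) kept 22.4%, with 19.5, 22.8 and 19.6 CPM in high light, against 97.9, 80.5 and 98.4 CPM in high CO2. GH3.3 (AT2G23170), which joins auxin to amino acids, had 0.956, 2.17 and 1.29 CPM in high light, against 8.54, 3.89 and 8.64 CPM in high CO2. The Aux/IAA gene AXR3 (AT1G04250) had 17, 13.1 and 12.4 CPM in high light, against 66.2, 62.9 and 69.8 CPM in high CO2. The auxin response factor ARF10 (AT2G28350) had 3.87, 4.01 and 3.97 CPM in high light, against 12, 14.9 and 20.8 CPM in high CO2. ARF10 varied little in high light, and in neither gene did the groups come near each other. AT4G12980, annotated as auxin-responsive, kept 17.8% of a mean of 75.6 CPM. Of 17 auxin transport genes tested, 10 were called lower and 3 higher, and of the 14 that are no members 7 were lower and 3 higher (median -0.60). ABCB4 (AT2G47000), an auxin transporter of the ABC class, went the other way, with 399, 419 and 687 CPM in high light, against 4.16, 6.54 and 6.1 CPM in high CO2 (log2 fold change 6.44 ± 0.32, edgeR adjusted p = 9.1e-07). PID (AT2G34650), a kinase that acts on PIN carriers, also rose, with 28.8, 32.8 and 35.6 CPM in high light, against 6.28, 5.05 and 6.1 CPM in high CO2 (log2 fold change 2.43 ± 0.14, edgeR adjusted p = 2.2e-06). Among Aux/IAA genes 12 of 18 tested were called lower and 4 higher (median log2 fold change -1.06), and of the 16 that are no members 10 were lower and 4 higher (median -0.97). Among auxin response factors 10 of 15 were lower and 1 higher (median -0.92), and of the 14 that are no members 9 were lower and 1 higher (median -0.89).

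Other hormones accounted for 7 members, 3 of them from the gibberellin list, and their summed CPM was 21.6, 33.2 and 18.7 CPM in high light, against 127, 118 and 98.5 CPM in high CO2. GA20OX1, which feeds GA3OX1, had 0.91, 0.60 and 0.507 CPM in high light, against 5.87, 5.51 and 6.65 CPM in high CO2, and like GA3OX1 it stayed below 1 CPM in every high light library. GNC (AT5G56860), a GATA factor of greening that acts downstream of gibberellin, had 3.96, 5.72 and 5.72 CPM in high light, against 26.5, 23.8 and 19.8 CPM in high CO2. EdgeR called 14 of 24 gibberellin genes lower and 3 higher (median log2 fold change -0.72), and of the 21 that are no members 11 were lower and 3 higher (median -0.59). The risen ones included GA2OX6 (AT1G02400), of the oxidases that inactivate gibberellin, with 27.4, 17.5 and 19.6 CPM in high light, against 0.316, 0.0828 and 0.61 CPM in high CO2 (log2 fold change 6.03 ± 0.41, edgeR adjusted p = 4.8e-06). Another was the receptor gene GID1B (AT3G63010), with 12.5, 13.2 and 16.7 CPM in high light, against 3.43, 5.63 and 7.65 CPM in high CO2 (log2 fold change 1.31 ± 0.25, edgeR adjusted p = 0.00183). In the brassinosteroid pathway, BRS1 (AT4G30610), a secreted carboxypeptidase, kept 19.8%, and BEE2 (AT4G36540), a bHLH factor induced by the hormone, kept 24.8%. BRS1 was far lower in replicate 3 than in the other high CO2 libraries, with 2.5, 3.65 and 1.66 CPM in high light, against 15, 18 and 6.37 CPM in high CO2. KDR (AT1G26945), a bHLH protein without DNA binding, kept 23.3%, and ARR9 (AT3G57040), a response regulator that damps cytokinin signalling, kept 24.9%. Of the brassinosteroid genes, 21 of 42 tested were called lower and 9 higher (median log2 fold change -0.53), and of the 41 that are no members 20 were lower and 9 higher (median -0.46). Of the cytokinin genes 18 of 46 were lower and 11 higher (median -0.40), and of the 45 that are no members 17 were lower and 11 higher (median -0.30).

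Cell wall genes were the largest named role, with 25 members that kept 9.68% to 24.1% of their high CO2 means. Their summed CPM was 314, 280.4 and 228 CPM in high light, against 1504, 1432 and 1509 CPM in high CO2. Expansins, which loosen walls, gave 5 members: EXPA5 (AT3G29030), EXPA6 (AT2G28950), EXPA15 (AT2G03090), EXPB1 (AT2G20750) and EXPB3 (AT4G28250). EXPA6 had 16.5, 19.8 and 11.7 CPM in high light, against 102, 78.9 and 57 CPM in high CO2. EXPA5 had 14.8, 10.7 and 12.5 CPM in high light, against 80.03, 71.4 and 55.3 CPM in high CO2. For EXPA5, EXPA6, EXPA15 and EXPB1, high CO2 replicate 3 was the lowest of its group, and for EXPB3 it was the highest. EXPB3 had 5.28, 3.83 and 7.42 CPM in high light, against 27.6, 23.6 and 34.3 CPM in high CO2. Of 19 expansins tested, 14 were called lower and 2 higher (median log2 fold change -1.39), and of the 14 that are no members 9 were lower and 2 higher (median -1.04). Those higher were EXPA16 (AT3G55500), with 17.5, 11.9 and 14.7 CPM in high light, against 6.24, 3.73 and 5.93 CPM in high CO2 (log2 fold change 1.44 ± 0.23, edgeR adjusted p = 7.2e-04) and the expansin-like EXLA1 (AT3G45970). EXLA1 had 7.06, 10.3 and 3.23 CPM in high light, against 3.12, 2.4 and 1.72 CPM in high CO2 (log2 fold change 1.42 ± 0.41, edgeR adjusted p = 0.0142). The call of EXLA1 was lost without high light replicate 2 (edgeR adjusted p = 0.0601).

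Xyloglucan-modifying enzymes gave XTH31 (AT3G44990), with 31.2, 21.4 and 22.8 CPM in high light, against 124, 122 and 202 CPM in high CO2. XTH32 (AT2G36870) kept 18%, and XTH6 (AT5G65730) had 23, 29.3 and 11.1 CPM in high light, against 110.2, 122 and 85.8 CPM in high CO2. Of their family 8 of 20 tested were called lower and 6 higher (median log2 fold change -0.49), and of the 17 that are no members 5 were lower and 6 higher (median -0.14). TCH4 (AT5G57560), a member of the family known to respond to touch, rose, with 70.3, 149 and 32.7 CPM in high light, against 2.71, 1.41 and 1.44 CPM in high CO2 (log2 fold change 5.41 ± 0.59, edgeR adjusted p = 9.1e-05). XTH29 (AT4G18990) rose too, on few reads in high CO2, with 2.46, 2.58 and 6.04 CPM in high light, against 0.181, 0.0414 and 0.0554 CPM in high CO2 (edgeR adjusted p = 1.4e-04). Wall polymers were also represented by CSLA01 and CSLB04 (AT2G32540, which kept 22.2%) of the cellulose synthase-like families. TBL26 (AT4G01080), of a family that acetylates wall polymers, was one of the more abundant members, with 42.5, 30.8 and 35.8 CPM in high light, against 219, 228 and 315 CPM in high CO2, and TBL6 (AT3G62390) kept 23.7%. The endoglucanases GH9C2 (AT1G64390) and GH9B8 (AT2G32990) kept 22% and 23.5%. Pectin was the substrate of PG2 (AT1G70370), a polygalacturonase with 41.5, 42.5 and 27 CPM in high light, against 183, 175 and 113 CPM in high CO2, of the pectin lyase-like genes AT5G19730, AT1G60590 and AT3G06770, of the pectin acetylesterase gene AT5G26670 and of the inhibitor gene AT1G23205. Of the cell wall members, AT1G23205 differed most between high CO2 libraries relative to its mean, with 4.14, 5.31 and 2.72 CPM in high light, against 23.8, 26.7 and 8.59 CPM in high CO2. In the pectin list 46 of 97 genes were called lower and 17 higher, and of the 91 that are no members 40 were lower and 17 higher (median -0.46). The largest rises were those of AT3G09405 (34.8, 46 and 52.1 CPM in high light, against 1.31, 1.53 and 2.44 CPM in high CO2; log2 fold change 4.62 ± 0.23, edgeR adjusted p = 9.1e-07) and AT5G62360 (7.37, 6.83 and 3.32 CPM in high light, against 0.859, 0.663 and 0.887 CPM in high CO2; log2 fold change 2.81 ± 0.34, edgeR adjusted p = 1.5e-04). The arabinogalactan gene AGP17 (AT2G23130) and the fasciclin-like gene FLA16 (AT2G35860) kept 22.2% and 20.2%, the plasmodesmal callose-binding gene PDCB3 (AT1G18650) 22.3%, the galactosyltransferase gene AT1G27120 22.6% and the proline-rich gene AT4G16140 19.97%. FLA16 shares 76.6% of its exon bases with an opposite-strand gene, and the labels do not say whether reads were counted by strand.

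The surface of the leaf and its lipids were the subject of 9 members, which kept 9.57% to 24.9% of their high CO2 means. Summed, they had 246, 269 and 147 CPM in high light, against 1266, 1137 and 603 CPM in high CO2, with replicate 3 the lowest library of each group. LTP6 moves lipids outside the cell and had 2.59, 1.02 and 2.44 CPM in high light, against 13.8, 18.3 and 31.1 CPM in high CO2. AT2G10940, annotated as a lipid-transfer and seed-storage type protein, was the fourth of the members by high CO2 mean, with 165, 196 and 90.9 CPM in high light, against 889, 816 and 309 CPM in high CO2. In both genes the groups lay apart, but high CO2 replicate 3 was the highest library for LTP6 and by far the lowest for AT2G10940. The GDSL esterase genes AT4G28780 and AT1G29660 kept 13.8% and 23.3%, and HTH (AT1G72970), needed for a cuticle that keeps organs separate, kept 23.4%, with 6.33, 5.81 and 4.98 CPM in high light, against 28.9, 25.9 and 18.3 CPM in high CO2. CYP96A12 (AT4G39510), the acyltransferase genes AT5G02890 and AT2G40230 and the patatin-like gene PLP9 (AT3G63200) kept 18.8%, 18.6%, 24.4% and 24.9%. Among GDSL esterases 27 of 42 tested were called lower and 8 higher (median log2 fold change -0.90), and of the 39 that are no members 24 were lower and 8 higher (median -0.80). The largest rises were those of GLIP1 (AT5G40990), with 0.774, 2.21 and 7.1 CPM in high light, against 0, 0.0414 and 0.111 CPM in high CO2 (edgeR adjusted p = 0.00192), and GLL22 (AT1G54000). GLL22 had 2.37, 2.72 and 2.12 CPM in high light, against 0.0452, 0.0414 and 0.443 CPM in high CO2 (edgeR adjusted p = 4.5e-04), and both had few reads in high CO2. Lipid transfer proteins were lower for 19 and higher for 11 of 43 tested, and of the 41 that are no members 17 were lower and 11 higher (median -0.15). Cuticle genes were lower for 25 and higher for 11 of 49, and of the 48 that are no members 24 were lower and 11 higher (median -0.51).

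Markers of several cell types were called lower in high light, and their part in these results was not tested. Among all genes tested, 30.4% were called lower and 30.4% higher. The 8 mesophyll markers were all called lower, with summed levels of 28167 to 38186 CPM in high light and 68197 to 82233 CPM in high CO2. Epidermis and trichome markers were called lower for 8 and higher for 1 of 9, with sums of 522 to 601 CPM in high light and 676 to 947 CPM in high CO2. Stomatal and guard cell markers were lower for 8 and higher for 4 of 15, and their sums overlapped, at 159 to 197 CPM in high light and 167 to 195 CPM in high CO2. Phloem and bundle sheath markers were lower for 6 and higher for 1 of 13 (987 to 1142 CPM in high light and 1233 to 1265 CPM in high CO2) and xylem markers for 6 of 11 (38 to 52.6 CPM in high light and 63.7 to 68.5 CPM in high CO2). Of 12 meristem and young leaf markers, WUS, CLV3 and GRF5 were at 0 in every library, 6 were tested and 5 of these were lower (22.7 to 26.8 CPM in high light and 53.5 to 59.5 CPM in high CO2). Of 12 root markers 5 were at 0 in every library and the one tested, SHR, was lower (5.67 to 6.78 CPM in high light and 8.7 to 10.8 CPM in high CO2).

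Glucosinolates, the sulfur-containing defence compounds of crucifers, were the subject of 13 members. They kept 13.5% to 24.7% of their high CO2 means, and their summed CPM was 795, 951 and 657 CPM in high light, against 3899, 3564 and 3413 CPM in high CO2. Regulators came first. MYB29 (AT5G07690) and MYB28 (AT5G61420), the MYB factors that drive the methionine-derived (aliphatic) branch, kept 13.5% and 16.9%. MYB29 had 7.88, 8.26 and 6.32 CPM in high light, against 52.7, 54.1 and 59.2 CPM in high CO2. MYB28 had 22, 26 and 21.2 CPM in high light, against 133, 125 and 151 CPM in high CO2. Both were steady within each group, and MYB29 averaged 7.48 ± 1.03 CPM in high light and 55.3 ± 3.45 CPM in high CO2 (SD, n = 3 each). MYC4 (AT4G17880), a bHLH partner of these factors, kept 18.9%, and MYB34 (AT5G60890), which drives the tryptophan-derived branch, kept 24.2%, with 7.51, 5.58 and 3.74 CPM in high light, against 25.6, 21.9 and 22.1 CPM in high CO2. Enzymes of side-chain elongation and of the core came next: IPMI1 (AT3G58990), an isopropylmalate isomerase, kept 19.7%, BAT5 (AT4G12030), a plastid transporter of the intermediates, kept 24.7%, and the cytochrome P450 enzymes CYP79F1 (AT1G16410) and CYP79F2 (AT1G16400), which take the elongated methionines into the core pathway, kept 22.2% and 22.8%. CYP79F1 had 107, 89.97 and 105 CPM in high light, against 400.4, 419.97 and 538 CPM in high CO2. The neighbouring CYP79F2 was far lower in both groups, at 1.01 CPM per kb in high light and 4.42 CPM per kb in high CO2, beside 36.7 CPM per kb in high light and 165 CPM per kb in high CO2 for CYP79F1 on the same per-length scale. GSTF11 (AT3G03190), a glutathione transferase placed in this pathway, kept 22.7%, but all of its exon bases (100%) overlap an opposite-strand gene.

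Side-chain modification and breakdown closed the glucosinolate set. The S-oxygenases FMO GS-OX3 (AT1G62560) and FMO GS-OX1 (AT1G65860) kept 18.4% and 21.4%. AOP2 (AT4G03060), a side-chain enzyme that the annotation of the Columbia genome gives as a pseudogene, was still counted, with 11.7, 12.1 and 9.91 CPM in high light, against 55.9, 47.3 and 74 CPM in high CO2. ESM1 (AT3G14210), a GDSL protein that shapes the products of glucosinolate breakdown, was the second of the members by high CO2 mean, with 514, 707 and 417 CPM in high light, against 2708, 2401 and 1999 CPM in high CO2. It averaged 546 ± 147 CPM in high light and 2369 ± 356 CPM in high CO2 (SD, n = 3 each). Per kilobase of transcript, ESM1 had the highest level of all members in high light (280 CPM per kb), while RBCS1B had the highest in high CO2. In the aliphatic pathway list 22 of 25 tested genes were called lower, a median log2 fold change of -1.75 beside -0.06 over all genes. Of these, 13 lay outside the rule, of 16 such genes with a median of -1.44, among them the third MYB regulator of the branch, MYB76 (AT5G07700), which was too low for it at 0.672 CPM in high light and 3.7 CPM in high CO2 (log2 fold change -2.48 ± 0.36, edgeR adjusted p = 4.4e-04). FMO GS-OX4 (AT1G62570) was the one called higher, with 26.2, 19.4 and 28.6 CPM in high light, against 9.72, 9.65 and 15 CPM in high CO2 (log2 fold change 1.08 ± 0.20, edgeR adjusted p = 0.00183).

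Flavonoid genes gave 7 members that act in making flavonols or adding sugar to them, and relative to their mean, their high light libraries differed most of the 12 roles. Their summed CPM was 288, 103 and 487 CPM in high light, against 961, 1422 and 1988 CPM in high CO2. In all 7 genes, high light replicate 2 was the lowest and replicate 3 the highest library of its group, and high CO2 replicate 1 was the lowest and replicate 3 the highest of its group. Over all expressed genes these shares were 20.5% and 29.4% in high light, and 39.1% and 63.0% in high CO2. TT4 (AT5G13930), the chalcone synthase that starts the pathway, had 185, 56.8 and 345 CPM in high light, against 632, 949 and 1249 CPM in high CO2. CHIL (AT5G05270), a chalcone isomerase-like protein that assists it, had 23.1, 6.74 and 35.6 CPM in high light, against 85.2, 129 and 215 CPM in high CO2. TT5 (AT3G55120), the isomerase, had 15.9, 8.58 and 18.4 CPM in high light, against 42.8, 58.7 and 88.2 CPM in high CO2. For TT4 the lowest high CO2 library was 1.83 times the highest high light library. TT7 (AT5G07990), a flavonoid hydroxylase, had 28.5, 7.06 and 43.2 CPM in high light, against 68.9, 120.2 and 231 CPM in high CO2, and its groups were 1.60 times apart. FLS1 (AT5G08640), the flavonol synthase, was steadier, with 7.78, 5.63 and 8.76 CPM in high light, against 35.3, 45.4 and 46.1 CPM in high CO2. 4CL3 (AT1G65060), which activates the cinnamic acids at the entry, kept 17.2%, and UGT78D1 (AT1G30530), which adds rhamnose to flavonols, kept 24.1%. MYB111 (AT5G49330), a regulator of these enzymes, was left out by the limit on abundance alone, with 0.41, 0.692 and 0.968 CPM in high light, against 3.75, 4.35 and 6.82 CPM in high CO2.

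Light signalling and the clock gave 8 members, with a summed level of 61.7, 71.6 and 64.2 CPM in high light, against 330.2, 307 and 382 CPM in high CO2. LHY, a MYB factor of the morning loop, had 4.23, 4.52 and 7.15 CPM in high light, against 52.8, 51.6 and 75.5 CPM in high CO2, and its groups lay more than 7-fold apart. Other MYB genes of the clock changed less: CCA1 (AT2G46830), the partner of LHY, had 54.4, 61.5 and 72.6 CPM in high light, against 89.2, 102 and 145 CPM in high CO2 (log2 fold change -0.87 ± 0.18, edgeR adjusted p = 0.00263). RVE8 (AT3G09600) had 9.65, 10.2 and 13.3 CPM in high light, against 23.8, 24.4 and 28.2 CPM in high CO2 (log2 fold change -1.25 ± 0.15, edgeR adjusted p = 1.5e-04). LCL1 (AT5G02840) fell slightly (log2 fold change -0.35 ± 0.11, edgeR adjusted p = 0.0232), EPR1 (AT1G18330) missed the threshold (-0.52 ± 0.25, edgeR adjusted p = 0.104), and RVE1 (AT5G17300) and RVE2 (AT5G37260) rose (0.64 ± 0.23 and 2.71 ± 0.38, edgeR adjusted p = 0.0398 and 3.6e-04). The call of LCL1 was lost without any 1 library other than high light replicate 3 (edgeR adjusted p = 0.0603 to 0.0921). EPR1 was called lower with upper-quartile scaling, with the replicate block and without high light replicate 2 (edgeR adjusted p = 0.0252, 0.0366 and 0.0164). The call of RVE1 was lost without high CO2 replicate 1 or 3 or high light replicate 2 or 3 (0.0563 to 0.146) and under upper-quartile scaling (0.187). In the clock list as a whole 8 of 25 genes were lower and 12 higher (median log2 fold change -0.02), and of the 24 that are no members 7 were lower and 12 higher (median 0.31). The whole list gave 12 lower and 11 higher under upper-quartile scaling. The evening genes PRR5 (AT5G24470) and FKF1 (AT1G68050) were among those that rose. PRR5 had 38.8, 44.9 and 29.6 CPM in high light, against 0.994, 1.57 and 2.11 CPM in high CO2 (log2 fold change 4.56 ± 0.25, edgeR adjusted p = 1.4e-06). FKF1 had 37.3, 27 and 25 CPM in high light, against 0.271, 0.373 and 0.332 CPM in high CO2 (log2 fold change 6.43 ± 0.28, edgeR adjusted p = 4.6e-07). These 2 were picked after their values were seen. Sampling at 3 h in high light and at 0 h in high CO2 cannot be told apart from the change of conditions.

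The other members of this role act in photomorphogenesis and phototropism. BBX19 (AT4G38960) and STH (AT2G31380), B-box zinc finger proteins of light signalling, kept 15.4% and 23.6%, and STH was the steadiest member in high light, at 16.8, 16.8 and 16.6 CPM, against 67.3, 69.6 and 76.1 CPM in high CO2. PKS2 (AT1G14280), a phytochrome kinase substrate, had 8.1, 10.2 and 7.29 CPM in high light, against 37.9, 36.1 and 39.2 CPM in high CO2. The NPH3 family, whose founder relays the blue-light signal of phototropins, gave AT3G15570, AT3G08660, AT3G19850 and AT1G67900, which kept 17.2%, 21.5%, 23.1% and 24.7%. AT3G15570 had the highest high CO2 mean of them, with 13.1, 13.7 and 10.9 CPM in high light, against 69.3, 69.9 and 79.6 CPM in high CO2. Of B-box genes 13 of 26 tested were called lower and 6 higher (median log2 fold change -0.58), and of the 24 that are no members 11 were lower and 6 higher (median -0.54). Of photoreceptor and light-signalling genes 18 of 35 were lower and 4 higher (median -0.51), and of the 34 that are no members 17 were lower and 4 higher (median -0.50).

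Chloroplast functions were the subject of 7 members, which together had 728, 663 and 444 CPM in high light, against 4232, 3775 and 2266 CPM in high CO2. All 7 were lowest in replicate 3 within high light, and 5 of them also within high CO2, beside 34.5% and 24.7% of all expressed genes. RBCS1B (AT5G38430), which encodes one of the Rubisco small subunits, had the highest high CO2 mean of all members, with 541, 476 and 295 CPM in high light, against 3465, 3009.7 and 1464 CPM in high CO2. Its means were 437 ± 127 CPM in high light and 2646 ± 1049 CPM in high CO2 (SD, n = 3 each). The coding sequence of RBCS1B matches those of RBCS2B and RBCS3B at over 95% identity, so reads that fit several copies leave its value uncertain. GUN4 (AT3G59400), which stimulates the first enzyme of chlorophyll synthesis, had 50.8, 50.02 and 34.7 CPM in high light, against 249.6, 223 and 194 CPM in high CO2, but shares 73.0% of its exon bases with an opposite-strand gene. NCED4 (AT4G19170), a dioxygenase that cleaves carotenoids, had 109, 106 and 95.4 CPM in high light, against 385, 433 and 511 CPM in high CO2. PGR3 (AT4G31850) and CRR21 (AT5G55740), which act on plastid transcripts, kept 21.6% and 24.5%, NDF5 (AT1G55370), needed for the plastid NDH complex, kept 24.6%, and AT2G27402, annotated as plastid transcriptionally active, kept 18.9%. Of 44 light-harvesting and photosystem genes none met the rule, beside 1.43% of all expressed genes, and nothing is read from this absence. EdgeR called 40 of the 44 lower (90.9%, beside 30.4% of all genes tested), with a median log2 fold change of -1.01.

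**Figure D4:**
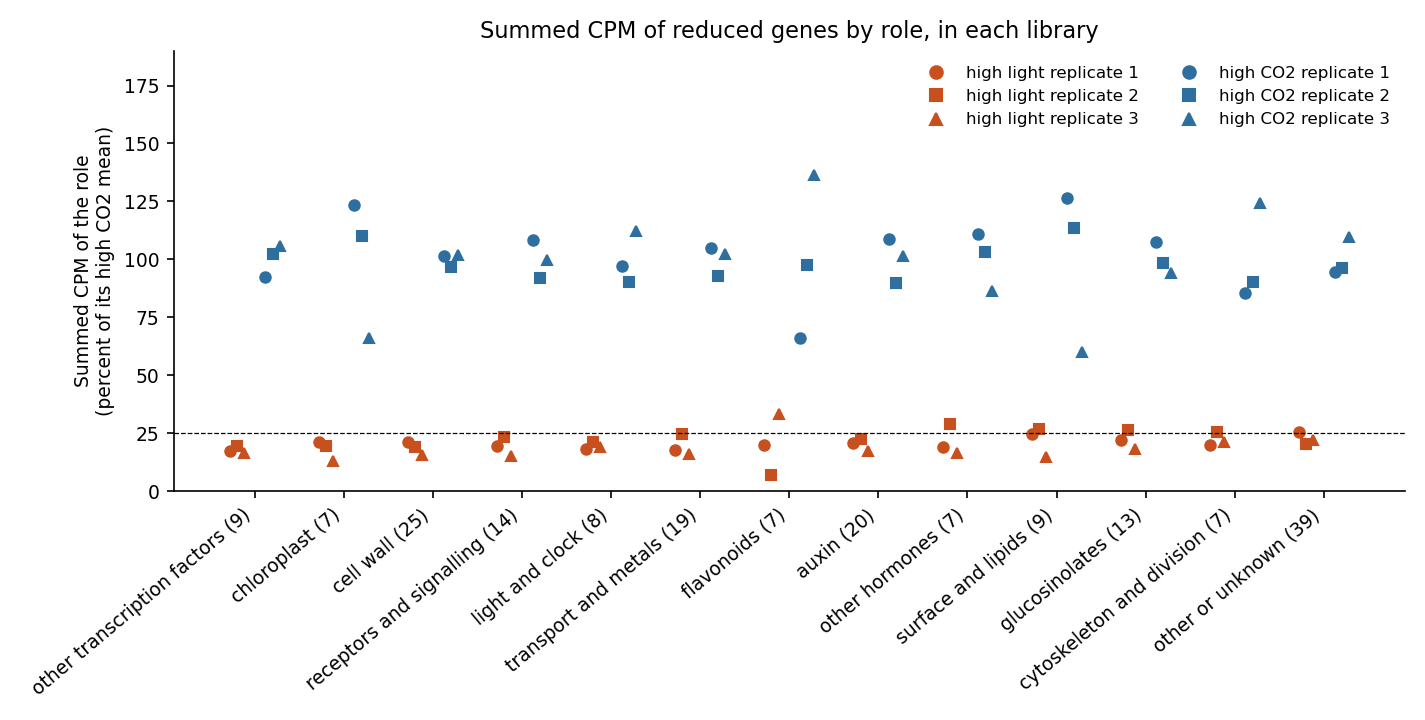
Summed CPM of the members of each role in each library (y axis, as a percent of the mean over the high CO2 libraries), high light left of high CO2, with the number of members in brackets (x axis); circles, squares and triangles are replicates 1, 2 and 3. Flavonoid genes spread most within high light, and replicate 3 of high CO2 is the highest library for flavonoids and the lowest for chloroplast and for surface and lipid genes.

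Receptors and signalling proteins gave 14 members, 9 of them with leucine-rich repeats, and together they had 61.9, 74.1 and 47.3 CPM in high light, against 342, 289 and 314 CPM in high CO2. AT3G17640 had 1.46, 1.71 and 1.15 CPM in high light, against 15.1, 14.6 and 16 CPM in high CO2. BAM2 (AT3G49670), a receptor kinase of small CLE peptides, had the highest high CO2 mean of them, with 14.2, 13.8 and 9.13 CPM in high light, against 70.3, 59.3 and 56.9 CPM in high CO2. GHR1 (AT4G20940), which acts in stomatal closure, kept 21.6%, and AT3G25670, AT3G56370, AT2G36570, AT5G67200, AT4G34220 and AT4G22730 kept between 15.6% and 24.4%. MAKR6 (AT5G52900), a membrane-associated kinase regulator, had 2.69, 6.83 and 2.26 CPM in high light, against 30.004, 21 and 24.7 CPM in high CO2, with high light replicate 2 well above the others. RTFL16 (AT3G25717), a small polypeptide of the ROTUNDIFOLIA family that limits cell proliferation, kept 15.6%, the kinase genes SNRK2-8 (AT1G78290) and AT2G36350 kept 22.6% and 20.05%, and the protein phosphatase gene AT5G02760 kept 22.3%. In the leucine-rich repeat list 99 of 284 were called lower and 99 higher (median log2 fold change -0.07), and of the 275 that are no members 90 were lower and 99 higher (median -0.03). The whole list gave 129 lower and 80 higher under upper-quartile scaling. AT1G51890, with 27.6, 51.8 and 57.8 CPM in high light, against 0.181, 0.373 and 0.61 CPM in high CO2, and AT4G11170, with 3.96, 6.0 and 6.96 CPM in high light, against 0.0452, 0.0414 and 0.0554 CPM in high CO2, had the largest rises (edgeR adjusted p = 2.1e-06 and 2.9e-06).

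Transcription factors outside the roles above gave 9 members, which kept 11.6% to 24.6% of their high CO2 means. MEE3 (AT2G21650), a small MYB-like protein, had 6.37, 6.18 and 10.4 CPM in high light, against 53.1, 77.2 and 67.3 CPM in high CO2. GIS (AT3G58070) and ZFP8 (AT2G41940), zinc finger proteins of trichome formation, kept 17.1% and 19%. ZFP8 was very even, with 8.38, 8.91 and 8.02 CPM in high light, against 43.9, 44.2 and 45.3 CPM in high CO2. MYB48 (AT3G46130), the homeobox gene ATH1 (AT4G32980), the GATA gene GATA7 (AT4G36240), the bHLH genes NIG1 (AT5G46830) and AT3G61950 and the zinc finger gene AT2G05160 kept between 14.9% and 24.6%. As families, bHLH factors were called lower for 38 and higher for 18 of 75 (median log2 fold change -0.53), and of the 72 that are no members 35 were lower and 18 higher (median -0.40). MYB and MYB-like factors were lower for 50 and higher for 41 of 141 (median -0.16), and of the 135 that are no members 44 were lower and 41 higher (median -0.13). The bHLH genes with the largest rises were AT5G56960, with 37.4, 26.3 and 35.3 CPM in high light, against 0.0904, 0.124 and 0.166 CPM in high CO2, and AT1G10585, with 168, 129 and 96.1 CPM in high light, against 1.22, 2.15 and 1.27 CPM in high CO2 (edgeR adjusted p = 2.9e-07 and 1.2e-06). In the MYB list AT2G38250 had 40.8, 49.1 and 59.8 CPM in high light, against 0.136, 0.373 and 0.554 CPM in high CO2, and MYB122 (AT1G74080), a factor of indole glucosinolates, had 2.37, 2.58 and 6.55 CPM in high light and no count in high CO2 (edgeR adjusted p = 5.1e-07 and 4.2e-04). NAC and WRKY factors held no member among the 41 that reached 5 CPM in high CO2, beside 1.43% of all expressed genes. Nothing is read from this absence. Of 95 tested, 7 were called lower and 62 higher (median log2 fold change 1.49), beside 30.4% lower and 30.4% higher of all genes tested.

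Transport and metals gave 19 members, with a summed level of 143, 199 and 130.4 CPM in high light, against 846, 747 and 825 CPM in high CO2. The ferric reductases FRO6 (AT5G49730) and FRO7 (AT5G49740), which are neighbours on chromosome 5, kept 19.1% and 20.3%. FRO6 had 27.8, 49.3 and 33.3 CPM in high light, against 219.7, 164 and 196 CPM in high CO2. FRO7 had 29, 48.7 and 35.1 CPM in high light, against 189.8, 157 and 208 CPM in high CO2. Both were highest in replicate 2 within high light. HMA2 (AT4G30110), a zinc pump, had 8.1, 13.6 and 5.21 CPM in high light, against 56.1, 56.6 and 53.1 CPM in high CO2. FP3 (AT5G63530), a farnesylated metal-binding protein, had 18.7, 20.9 and 15.7 CPM in high light, against 95, 96.2 and 93.1 CPM in high CO2. In these 2 genes the high CO2 libraries were within 4 CPM of each other. The nitrate transporter NRT1.5 (AT1G32450) kept 19.3%, the boron exporter BOR1 (AT2G47160) 23.7%, NAS4 (AT1G56430), which makes the metal chelator nicotianamine, 23.9%, the metal-transport type gene AT5G19090 23.8% and the chloride channel gene CLC-B (AT3G27170) 14.6%. SAG29 (AT5G13170), a sugar transporter named for senescence, had 2.59, 1.48 and 1.38 CPM in high light, against 19.3, 13 and 15.3 CPM in high CO2. The ABC transporter genes ABCB15 (AT3G28345) and ABCB13 (AT1G27940) kept 13.3% and 13.9%. UMAMIT36 (AT1G70260) and UMAMIT31 (AT4G01440), of a family of amino acid exporters, kept 14.9% and 25%, GDU4 (AT2G24762), a regulator of amino acid export, 22.5%, and the carriers AT1G34580 and AT5G13400 11.2% and 24.3%. AT4G15430, annotated as of an early-responsive to dehydration family, and AT3G09450, annotated as of a fusaric acid resistance family, each kept 12.4%.

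The cytoskeleton and cell division gave 7 members, which kept 7.39% to 24.4% of their high CO2 means. TRM24 had 0.683, 0.969 and 0.369 CPM in high light, against 6.91, 8.45 and 12 CPM in high CO2. The formin gene FH3 (AT4G15200), which nucleates actin, had 4.19, 1.94 and 3.0 CPM in high light, against 9.9, 12.6 and 22.4 CPM in high CO2, and its high CO2 replicate 3 stood well above the others. CYCP2;1 (AT3G21870), a P-type cyclin, kept 23.3%, the microtubule motor gene AT4G38950, next to BBX19, 24.4%, and the filament and WEB family genes AT1G77580 and AT4G27595 24% and 24.4%. Cell cycle drivers held no member among the 29 that reached 5 CPM in high CO2, beside 1.43% of all expressed genes. Of 67 tested, 21 were called lower (31.3%) and 6 higher, beside 30.4% lower and 30.4% higher of all genes tested. Nothing is read from these counts. Microtubule-associated and TRM genes were lower for 51 and higher for 5 of 84, and of the 82 that are no members 49 were lower and 5 higher (median -0.80).

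The 39 members without a role kept 7.53% to 24.9% of their high CO2 means and included enzymes of amino acid metabolism. MS2 (AT3G03780), a methionine synthase, had 158, 117 and 128 CPM in high light, against 575, 543 and 533 CPM in high CO2. AK3 (AT3G02020), an aspartate kinase at the head of the same amino acid family, had 69.9, 55.2 and 74.7 CPM in high light, against 235, 266 and 396 CPM in high CO2. It shares 49.7% of its exon bases with an opposite-strand gene. SBP2 (AT4G14040), a selenium-binding protein, had 161, 123 and 128 CPM in high light, against 554, 547 and 599 CPM in high CO2. AT1G78020, of a family annotated as senescence-associated, had 69.1, 46.9 and 67.4 CPM in high light, against 228, 269 and 347 CPM in high CO2. DJ1F (AT3G54600) kept 21.8%, the glucosidase gene BGLU1 (AT1G45191) 20.5%, APT2 (AT1G80050), which recycles adenine, 24.6%, and the glycosyltransferase neighbours AT2G18560 and AT2G18570 17.7% and 23.4%. Of UDP-glycosyltransferases as a family, 30 of 95 were called lower and 42 higher (median log2 fold change 0.01), and of the 92 that are no members 27 were lower and 42 higher (median 0.11). The whole family gave 41 lower and 41 higher under upper-quartile scaling. UGT74E2 (AT1G05680), with 1531, 1582 and 1969 CPM in high light, against 0.994, 3.52 and 0.388 CPM in high CO2, and UGT73B4 (AT2G15490), with 109, 119 and 162 CPM in high light, against 0.0452, 0.373 and 0 CPM in high CO2, had the largest rises (edgeR adjusted p = 6.7e-06 and 1.2e-06). Cytochrome P450 genes were lower for 53 and higher for 43 of 127 (median log2 fold change -0.21), and of the 122 that are no members 48 were lower and 43 higher (median -0.17). The largest rises were those of CYP81D11 (AT3G28740) and CYP81G1 (AT5G67310). CYP81D11 had 251, 287 and 318 CPM in high light, against 0.136, 0.58 and 0.0554 CPM in high CO2 (edgeR adjusted p = 6.7e-07). CYP81G1 had 3.41, 3.6 and 6.5 CPM in high light and no count in high CO2 (edgeR adjusted p = 8.2e-05).

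**Figure D5:**
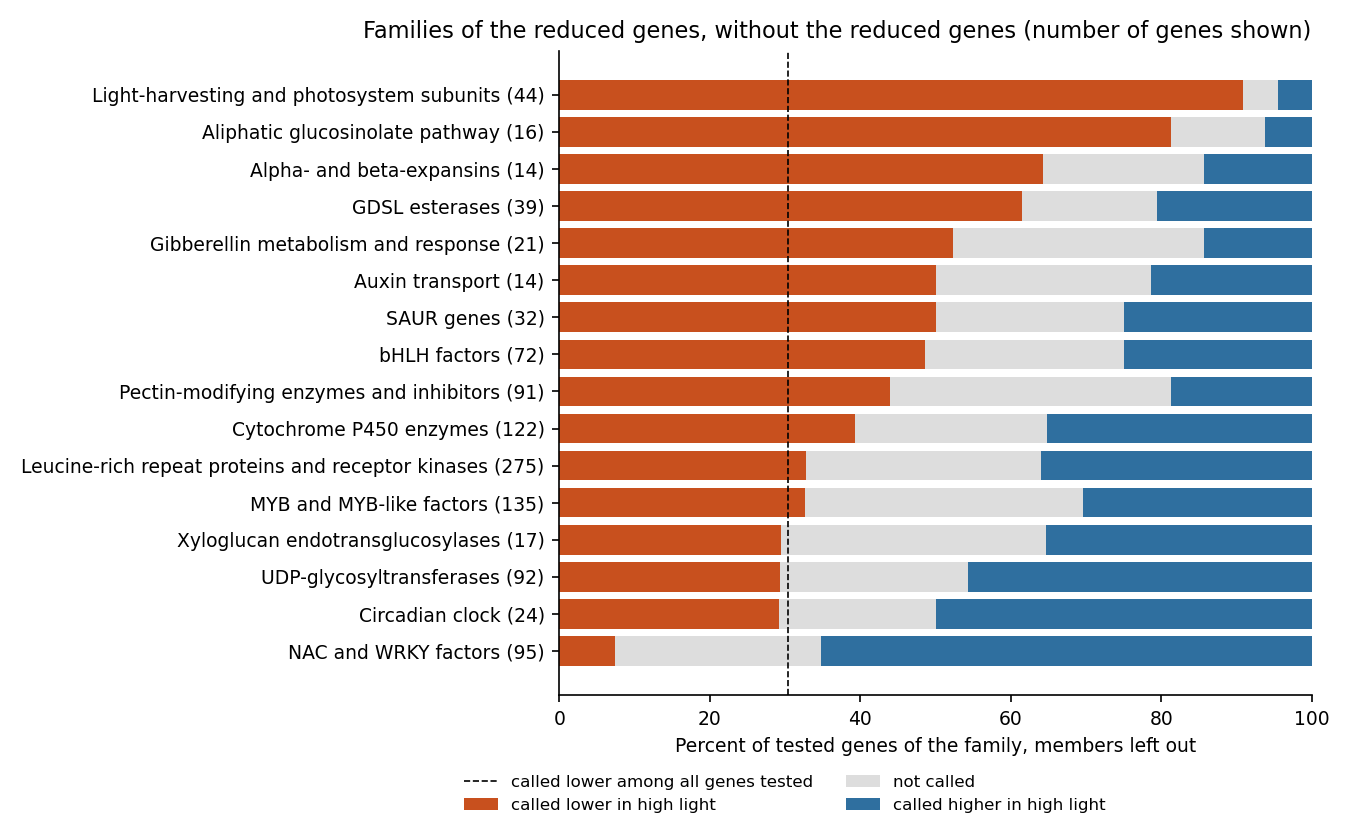
Percent of tested genes (x axis) called lower, not called and called higher in high light by edgeR at an adjusted p under 0.05, for the genes that are no members, in the families with at least 3 members and for clock, photosystem and NAC and WRKY genes (y axis, with the number of genes shown). The dashed line marks the 30.4% of all genes tested that were called lower. The called-lower part was 81.2% for aliphatic glucosinolate genes, 64.3% for expansins and 7.37% for NAC and WRKY factors.

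The median coefficient of variation over the 3 libraries was 26.0% for members and 11.9% for all expressed genes in high light, and 17.7% and 14.1% in high CO2. The median member was at 4.76, 5.42 and 3.83 CPM in the high light libraries and at 25.4, 22.5 and 23.5 CPM in the high CO2 libraries, and the part of these low levels in the spread was not tested. Within high light, replicate 2 was the highest library for 91 members (49.5%, beside 45.3% of all expressed genes), replicate 1 for 64 and replicate 3 for 29. Replicate 3 was the lowest high light library for 110 (59.8%, beside 34.5% of all expressed genes). Within high CO2, replicate 3 was the highest for 93 members, replicate 1 for 74 and replicate 2 for 17. Among all expressed genes replicate 3 was the highest high CO2 library for 63.0%. The lowest high CO2 library was at a median 3.28 times the highest high light library, and over 2 times for 172 members. The gap was narrowest for AT5G11930, a thioredoxin-like gene, which had 2.23, 0.692 and 3.5 CPM in high light, against 4.2, 8.9 and 14 CPM in high CO2 and a gap of 1.20 times. AT1G23110 followed, with 7.65, 4.75 and 0.507 CPM in high light, against 21.1, 26.1 and 10.14 CPM in high CO2 and a gap of 1.33 times. When replicate 3 was left out of each group, a choice made after the data were seen, 142 genes met the rule and 132 of them were members.

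The limit of the rule cut through a continuous range. Just inside it, PLP9, AT3G22550 and UMAMIT31 kept 24.9%, 24.9% and 25% of their high CO2 means. Just outside, the homeobox gene PHB (AT2G34710) kept 25.1%, the carrier gene AT3G21670 25.1% and the actin regulator WAVE2 (AT1G29170) 25.2%. PHB had 6.78, 8.44 and 4.89 CPM in high light, against 29.2, 25.8 and 25.2 CPM in high CO2, with no overlap between the groups.

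In the genome the members were spread over the 5 chromosomes, at 1.35%, 1.48%, 1.5%, 1.78% and 1.19% of the expressed genes of chromosomes 1 to 5. Neighbouring genes formed 7 pairs with 13 members in all: CYP79F2 with CYP79F1, SAUR63 with AT1G29450, AT1G29450 with AT1G29460, AT2G18560 with AT2G18570, AT4G38950 with BBX19, SAUR20 with AT5G18030, and FRO6 with FRO7. In 20 members more than 10% of the exon bases are shared with an opposite-strand gene, among them AT1G20470 (72.8%), AT5G01015 (43.9%), AT1G23110 (37.8%) and AT3G15570 (37.3%), which leaves their values uncertain if strand was ignored.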

How the data were processed

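Poly(A) RNA of the 6 leaf samples was extracted with TRIzol and RNeasy and sequenced from a stranded TruSeq mRNA kit, per the labels' protocols. The submitters' processing notes name Trim Galore 0.3.3, TopHat2 2.1.0, featureCounts of Subread 1.4.6 and the build TAIR10, and whether reads were counted by strand is not given in those notes or labels. The table as deposited held raw counts per gene (33604 rows, of which 2 leftover header lines were dropped).

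From the deposited counts, CPM was computed on library totals, the members were found by the rule stated above, and all 18504 genes passing edgeR's filter (minimum count 10) were fitted with edgeR 4.0.16 (quasi-likelihood test, TMM factors 0.932 to 1.07, Benjamini-Hochberg adjustment, threshold 0.05, 4 residual degrees of freedom, biological coefficient of variation 0.177) in R 4.3.3. Log2 fold changes are high light over high CO2. The standard error beside each was worked back from the F statistic of edgeR's test and a log2 fold change fitted without added counts. The fitting was tested on simulated data. Gene names, exons and promoters came from RefSeq TAIR10.1 (32835 of 33602 loci matched), with the first listed transcript of each gene; no coordinates are given, since the files use TAIR10. Near copies were searched with BLAST 2.17.0. The 39 gene lists were assembled from textbook families and annotation words, and 7 lists of cell type markers were added. Members, lists, roles and motifs were chosen with earlier results of these data known, so none of them is independent support. The text names the 10 members with the lowest ratio, the 10 with the highest mean CPM in high CO2, up to 4 members of each list by lowest ratio, the 3 genes on either side of the limit, LHY with CCA1 and the RVE genes, and the 2 largest called rises of each list with at least 3 members; genes named beyond this were chosen after their values were seen. P-values measure the spread between the 3 repeats of each group, each a pool of plants. Alternatives tried were other scalings, DESeq2 1.42.0, other filters and limits of the rule, a replicate block, and leaving out libraries.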

Additional observations from a re-analysis of the deposited data

How the results depend on the processing

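The count of genes meeting the rule depended on its limits and on scaling. It was 184 as reported, 398 with upper-quartile-scaled library sizes (all 184 among them), 294 with a minimum of 1 CPM, 463 with a limit at 3-fold and 16 with a limit at 8-fold. Leaving out 1 library gave 149 to 211 genes, with 137 to 176 of the 184 members among them. The fewest members were kept without high light replicate 3 (137) and without high CO2 replicate 3 (149). The median log2 ratio of the members was -2.25 as reported and -2.58 with upper-quartile-scaled library sizes, and ran between -2.38 and -2.17 with 1 library left out. Upper-quartile scaling also moved the called genes to 7883 lower and 4386 higher, the bHLH factors called higher to 10 (18 as reported), the NAC and WRKY factors called lower to 14 (7 as reported) and the light-signalling genes called higher to 2 (4 as reported). Without a filter on low counts 13 GDSL esterases were called higher (8 as reported). The expansins called higher were 1 to 2 with 1 library left out, and 1 without high light replicate 2. Members called lower by edgeR's test numbered 179 to 184 with 1 library left out, lowest without high CO2 replicate 3, where the flavonoid genes TT4 and TT7 were among those lost (TT4 at a log2 fold change of -2.06, adjusted p = 0.0833, and TT7 at -1.89, adjusted p = 0.106). DESeq2 called 183, and edgeR without a filter on low counts 181, with TT7 lost (log2 fold change -2.41, adjusted p = 0.0613). Of 113 named genes followed over 12 refits, 5 lost their call at least once (TT4, TT7, LCL1, RVE1 and EXLA1), EPR1 gained one in 3 and none changed direction. Without replicate 3 of both groups, 5807 genes were called higher and 4869 lower.

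Same-numbered replicates of the groups were not shown to be paired: over 15628 genes their deviations correlated at 0.298, -0.0422 and 0.473, and those of differently numbered ones at -0.498 to 0.248. With a replicate block edgeR called 5880 genes higher and 6071 lower, and 184 members lower. With 3 libraries a group, single members whose groups lie close together, such as AT5G11930 and AT1G23110, rest on few values, and the members near 5 CPM rest on few reads in high light.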
